A study of Mus musculus with 8 samples.

Results

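The 10 genes described here belong to the bone morphogenetic protein (BMP) and transforming growth factor beta (TGF-beta) pathways. They are the ligand genes *Bmp2*, *Bmp4*, *Bmp7* and *Tgfb2*, the receptor gene *Acvrl1*, the intracellular inhibitor genes *Smad6* and *Smad7*, and the target genes *Id1*, *Id2* and *Id3*. They were chosen by name from the 24385 features of a transcript table of mouse embryonic hearts, and all 10 were among the 10018 genes whose mean reached 1 FPKM (fragments per kilobase of transcript, divided by the size of the library) and so were tested.

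BMP and TGF-beta ligands are secreted dimers that bring together type I and type II serine/threonine kinase receptors, which then phosphorylate SMAD proteins that move into the nucleus with SMAD4. BMP signals induce the *Id* genes, whose products bind basic helix-loop-helix transcription factors and keep them off DNA, and they also induce *Smad6* and *Smad7*, whose products block the same pathway. In the embryonic heart, BMPs from the myocardium and neighbouring tissues act in the specification of cardiac progenitors, in chamber growth and in the formation of the cushions from which valves arise, and the receptor ALK1, the product of *Acvrl1*, acts in endothelial cells.

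Hearts of E8.5 and E9.5 mouse embryos on a C57BL/6 background were sequenced, with 2 libraries in each of the 4 groups of stage and genotype. The conditional knockout (cKO) embryos were *Mesp1* Cre/+ *Dgcr8* loxP/loxP and the controls, labelled WT, were *Dgcr8* loxP/loxP without Cre, and per the study's methods both carried the *Rosa26* mT/mG/+ reporter. *Dgcr8* encodes a protein needed to cut primary microRNA (miRNA) transcripts. Cre was expressed from the *Mesp1* locus, which is active in early mesoderm, so the deletion covers the cardiomyocytes, endocardium and other progeny of these cells, and the cKO embryos also differ from the controls by the Cre allele itself.

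*Dgcr8* measured 7.10 and 8.60 FPKM in the controls at E8.5, against 1.64 and 4.67 in cKO hearts, and at E9.5 it measured 3.49 and 3.23 against 1.15 and 1.77 FPKM, so that each cKO library was below both WT libraries of its stage. Summed FPKM lay between 884018 and 1944596 per library, and the share of it on loci under 300 bp was 15.7% to 22.4% in the 4 WT libraries. It was 38.6% and 50.5% in the E8.5 cKO libraries, and 54.5% and 18.3% in E9.5 cKO replicates 1 and 2, so that 3 of the 4 cKO libraries stood above all WT libraries. Relative depth, read from genes below 0.3 FPKM, was at most 1.45 times that of the first E8.5 WT library. The summed FPKM of 9 cardiomyocyte markers was 24513 to 75078 in the 8 libraries. Markers of decidual stroma, a maternal tissue, summed at E8.5 to 468 and 1163 FPKM in WT and to 10.6 and 5156 in cKO hearts, but to at most 5.16 FPKM at E9.5. Results that rest on the E8.5 libraries are therefore given with these sums where the values follow them.

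The genes stood at very different levels. *Id1*, *Id2* and *Id3* had group means of 55.4 to 520 FPKM, the 4 ligand genes had means of 3.40 to 13.7 FPKM, and *Acvrl1*, *Smad6* and *Smad7* had means of 0.80 to 4.21 FPKM. In each group, the least abundant *Id* gene was thus above every ligand gene and inhibitor gene per length of transcript.

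In the table the *Id* genes are short loci, *Id1* on chromosome 2 (152736251 to 152737410), *Id2* on chromosome 12 (25093799 to 25096092) and *Id3* on chromosome 4 (136143822 to 136145392), with positions on GRCm38 counted from 1. The ligand genes are *Bmp2* (chromosome 2, 133552159 to 133562896), *Bmp4* (chromosome 14, 46383525 to 46390669), *Bmp7* (chromosome 2, 172868012 to 172940321) and *Tgfb2* (chromosome 1, 186623186 to 186705992). *Acvrl1* lies on chromosome 15 (101128522 to 101145336) and *Smad6* on chromosome 9 (63953076 to 64022059).

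**Figure D1:**
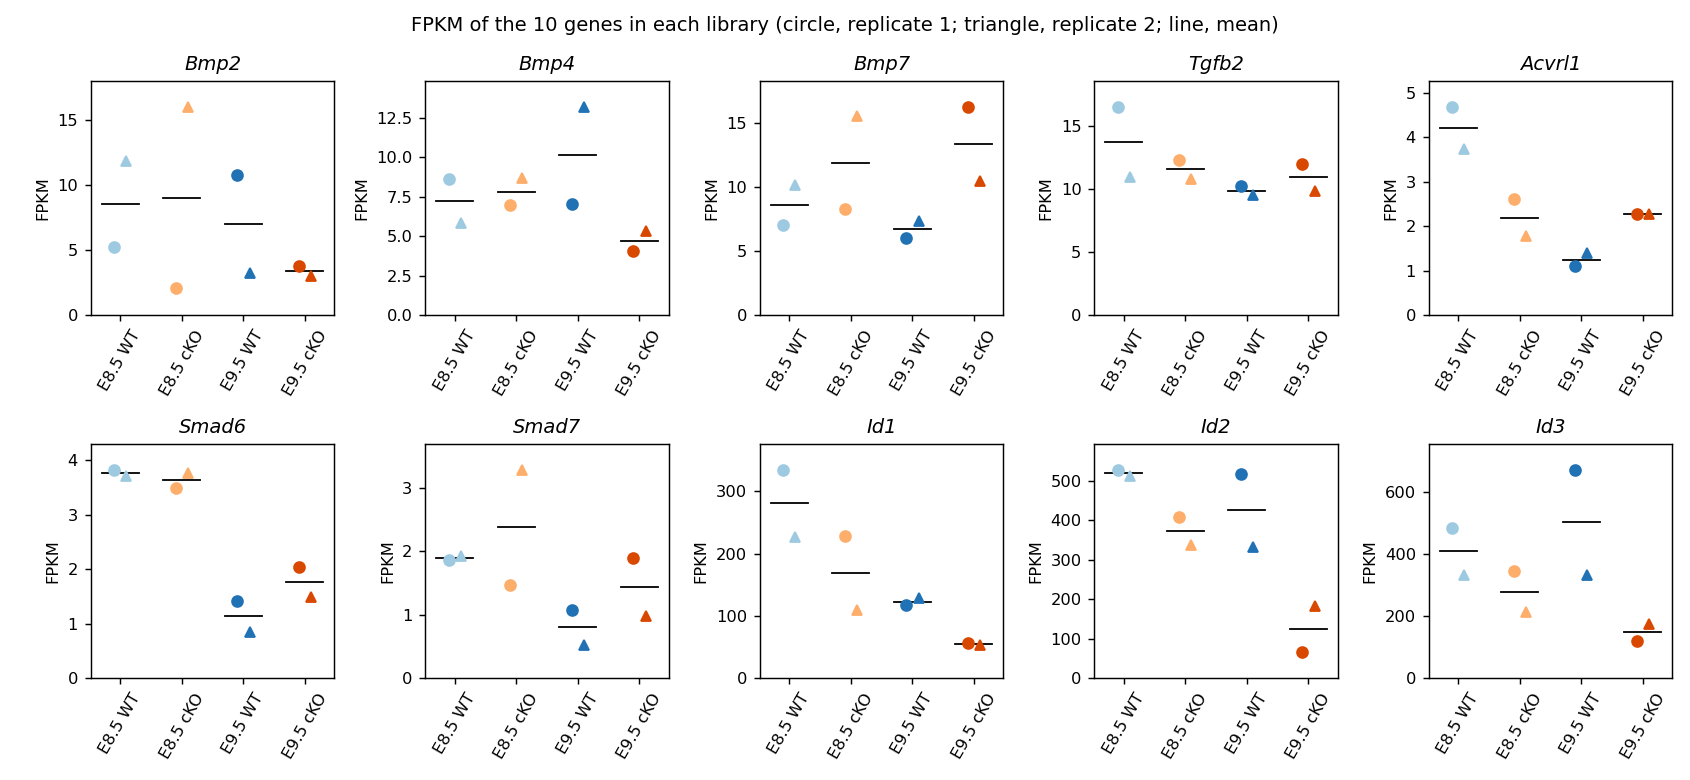
FPKM (linear axis, own scale per panel, starting at 0) of each gene in the 8 libraries; circles are replicate 1, triangles replicate 2 and lines the mean of 2. The E9.5 cKO points of *Id1*, *Id2*, *Id3* and *Bmp4* lie below all other points of these genes, while those of *Bmp7*, *Acvrl1* and *Smad6* lie above the E9.5 WT points.

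The genotypes were compared first in E9.5 hearts. Of the 10 genes, *Id1*, *Id2*, *Id3* and *Bmp4* were lower in both cKO libraries than in both WT libraries, and *Bmp7*, *Acvrl1* and *Smad6* were higher in both. None of the 10 passed the test of limma at a Benjamini-Hochberg adjusted p under 0.05 and 1.5-fold, which 0.180% of all tested genes passed in either direction. With an unadjusted p under 0.05 at 1.5-fold or more, 4 of the 10 were lower, against 9.99% of all tested genes, and 1 was higher, against 5.08%. Without overlap between the genotypes 4 were lower, against 31.1% of all genes, and 3 were higher, against 21.0%. The median log2 change of the 10 genes was -0.28 and that of all tested genes was -0.07.

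The *Id* genes are direct targets of BMP-activated SMADs and had the largest differences. *Id2* reached 518 and 332 FPKM in WT at E9.5, compared with 65.0 and 183 in cKO. The cKO libraries did not overlap with the WT libraries, although they differed 2.82-fold from each other. The mean was 3.42-fold lower in cKO hearts, and on the log2 scale the change was -1.91 (SE 0.47, limma unadjusted p 0.004, adjusted p 0.129), which did not pass the threshold. Without E9.5 cKO replicate 1, the lower library, the change was -1.17. Of all tested genes, 0.33% had a log2 change as low. In RNA of whole hearts, fewer cells of a type and less RNA per cell cannot be told apart, here and in the results that follow.

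*Id3* was at 670 and 332 FPKM in the 2 WT libraries at E9.5 and at 120 and 175 in the 2 cKO libraries. The WT libraries differed 2.02-fold from each other, and the lower of them was still above both cKO libraries. The log2 change of *Id3* was -1.70 (SE 0.43, limma adjusted p 0.136), with group means of 501 ± 239 and 147 ± 38.9 FPKM (SD, n = 2).

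*Id1* showed the least spread of the 3 genes, with 117 and 128 FPKM in WT at E9.5 against 57.1 and 53.7 in cKO. The genotypes lay further apart than the replicates, which differed 1.097-fold in WT and 1.063-fold in cKO hearts. Its log2 change of -1.13 (SE 0.38, limma adjusted p 0.216) did not pass the threshold either. The sum of the 3 *Id* genes at E9.5 was 1304 and 792 FPKM for WT against 242 and 412 for cKO. The cKO library with the lower sum was replicate 1, with 54.5% of its FPKM on loci under 300 bp. With the libraries rescaled to loci of 300 bp or more, the log2 changes were -1.12 for *Id1*, -1.91 for *Id2* and -1.69 for *Id3*, and after quantile normalization they were -0.75, -1.48 and -1.28. The summed FPKM of 4 proepicardial markers was lower in the same cKO libraries, at 9.09 and 8.69 against 34.1 and 18.8 in WT, with all 4 lower without overlap (31.1% of all tested genes were), and the part of this tissue in the *Id* values was not tested.

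The typical change at E9.5 differed between genes of low and high GC content. Among the 2468 genes within 2.5 percentage points of the GC content of *Id3* (55.6%), the median log2 change was 0.13, and the change of *Id3* relative to it was -1.82. For *Id2*, whose transcript has 42.4% GC, the median of 1535 like genes was -0.30 and the relative change -1.61. For *Id1* (54.7% GC, 2574 like genes) the relative change was -1.22. Beside genes of their own GC content, *Id1* and *Id3* thus stood further below than in the comparison with zero, and *Id2* stood nearer. The same comparison brought *Smad6* from 0.38 to 0.22, *Smad7* from 0.43 to 0.27, *Acvrl1* from 0.54 to 0.39 and *Bmp7* from 0.87 to 0.76, and moved *Tgfb2* from 0.13 to 0.37, while *Bmp2* and *Bmp4* changed by little, to -0.70 and -0.93.

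Start regions were at hand for 5 of the 10 genes (*Bmp4*, *Tgfb2*, *Smad6*, *Id2* and *Id3*). Those of *Id2* and *Id3* are shown because these genes had the largest differences, and that of *Smad6* because it is also induced by BMP signals but was not lower. Each runs from 250 bases before to 50 bases after the start of the gene (RefSeq, GRCm38.p6, 5′ to 3′ on the strand of the gene), at chr12:25096043-25096342 on the minus strand for *Id2*, chr4:136143572-136143871 on the plus strand for *Id3* and chr9:64022010-64022309 on the minus strand for *Smad6*. Capitals mark the SMAD-binding box GTCT, on either strand, and the GC-rich SMAD element GGCGCC.
Id2: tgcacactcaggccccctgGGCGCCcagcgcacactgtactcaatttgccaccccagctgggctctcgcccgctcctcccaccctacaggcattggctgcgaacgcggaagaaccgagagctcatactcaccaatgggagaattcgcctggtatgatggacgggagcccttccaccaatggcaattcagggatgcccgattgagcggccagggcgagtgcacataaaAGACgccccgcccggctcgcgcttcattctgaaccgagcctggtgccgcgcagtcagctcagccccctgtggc
Id3: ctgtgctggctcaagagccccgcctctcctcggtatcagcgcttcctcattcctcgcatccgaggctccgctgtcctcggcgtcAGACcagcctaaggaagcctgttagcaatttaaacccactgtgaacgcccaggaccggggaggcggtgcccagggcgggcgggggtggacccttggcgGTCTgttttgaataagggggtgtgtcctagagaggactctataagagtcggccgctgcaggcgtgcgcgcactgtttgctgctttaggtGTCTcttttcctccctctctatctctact
Smad6: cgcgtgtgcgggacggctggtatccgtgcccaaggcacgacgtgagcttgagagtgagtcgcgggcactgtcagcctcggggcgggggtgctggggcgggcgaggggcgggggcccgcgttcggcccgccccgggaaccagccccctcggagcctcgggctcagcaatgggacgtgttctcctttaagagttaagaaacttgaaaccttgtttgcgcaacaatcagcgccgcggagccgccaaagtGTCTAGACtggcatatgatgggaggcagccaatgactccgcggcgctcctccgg

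*Id2* holds 1 GTCT box and 1 GGCGCC element, *Id3* holds 3 GTCT boxes and no GGCGCC element, and *Smad6* holds 2 adjoining GTCT boxes on opposite strands. GTCT was found in 88.0% of the 32851 start regions of this length and GGCGCC in 11.9%, and no GGCGCC overlapped a GTCT in the regions shown. All 3 regions hold the box that most start regions hold.

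Among the ligand genes, *Bmp4* encodes a BMP of the outflow tract, the dorsal mesocardium and the septum transversum region. It measured 7.05 and 13.2 FPKM in the controls at E9.5, against 4.04 and 5.33 in cKO hearts. The cKO libraries lay below both WT libraries and also below all 4 E8.5 libraries, of which the lowest had 5.86 FPKM. The log2 change was -0.92 (SE 0.34, limma adjusted p 0.247), and leaving out E9.5 WT replicate 2, the highest library, moved it to -0.51. The proepicardial markers given above were also lower in both cKO libraries. Their sum was 34.1 and 18.8 FPKM in E9.5 WT replicates 1 and 2, where *Bmp4* was at 7.05 and 13.2 FPKM. The part of this tissue in the *Bmp4* values was not tested.

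*Bmp7*, which encodes a BMP of the myocardium, reached 6.08 and 7.36 FPKM in WT at E9.5, compared with 16.3 and 10.5 in cKO. Both cKO libraries were above both WT libraries, and the log2 change was 0.87 (SE 0.36, limma unadjusted p 0.042, adjusted p 0.298). Without E9.5 cKO replicate 1 it was 0.58. The summed cardiomyocyte markers were also higher in both cKO libraries, at 73863 and 75078 FPKM against 55365 and 55173 in WT, with 4 of the 9 higher without overlap (21.0% of all tested genes were) and 1 lower. The part of cardiomyocyte number in the *Bmp7* values was not tested. The ratio of *Bmp7* to *Bmp4* was 0.86 and 0.56 in the E9.5 WT libraries and 4.02 and 1.96 in the E9.5 cKO libraries. At E8.5 this ratio was 0.81 and 1.74 in WT and 1.20 and 1.79 in cKO libraries, so the genotypes overlapped at the earlier stage.

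*Bmp2* encodes the BMP of the atrioventricular myocardium that acts on the underlying endocardium. It was at 10.8 and 3.26 FPKM in the 2 WT libraries at E9.5 and at 3.82 and 2.99 in the 2 cKO libraries, and the genotypes overlapped. Its log2 change of -0.69 (SE 0.79, limma adjusted p 0.746) rested on WT replicate 1, without which it was 0.04. The 95% interval of the change, -2.53 to 1.14, leaves its direction unknown.

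*Tgfb2*, the TGF-beta ligand gene of the cushion-forming myocardium, measured 10.2 and 9.52 FPKM in the controls at E9.5, against 11.9 and 9.86 in cKO hearts. The genotypes overlapped, and the log2 change was 0.13 (95% interval -0.50 to 0.75, limma adjusted p 0.888). The summed FPKM of *Bmp2*, *Bmp4* and *Bmp7* was 23.9 and 23.8 in the E9.5 WT and 24.1 and 18.8 in the E9.5 cKO libraries, so that the sum of the 3 BMP genes overlapped between genotypes where that of the *Id* genes did not.

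The inhibitor genes stood on the other side of zero from the *Id* genes. *Smad6*, whose product competes for the BMP-activated SMADs and receptors, reached 1.42 and 0.84 FPKM in WT at E9.5, compared with 2.03 and 1.48 in cKO. The cKO libraries were higher without overlap, although the nearest libraries of the genotypes were almost level, and the log2 change was 0.38 (SE 0.24, limma adjusted p 0.507, 95% interval -0.18 to 0.93), which became 0.18 without E9.5 WT replicate 2 and 0.23 without E9.5 cKO replicate 1. *Smad7*, whose product also blocks TGF-beta receptors, was at 1.08 and 0.53 FPKM in the 2 WT libraries and at 1.89 and 0.98 in the 2 cKO libraries. These overlapped, and the limma estimate was 0.43 on the log2 scale (SE 0.34, adjusted p 0.611). At such low FPKM the added 1 of the log2 scale makes these changes smaller than the ratios of the means, which were 1.55 for *Smad6* and 1.79 for *Smad7*.

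The ratio of *Id1* to *Smad6* was 82.1 and 152 in the E9.5 WT libraries and 28.1 and 36.3 in the E9.5 cKO libraries. At E8.5 the ratio was 87.6 and 61.2 in WT and 65.1 and 29.2 in cKO libraries. The ratio was lower in both E9.5 cKO libraries. This follows from the separations of *Id1* and *Smad6* in opposite directions given above and adds no test to theirs, which neither gene passed. *Smad6* was between 0.84 and 2.03 FPKM in the E9.5 libraries. Such a ratio within a library is not moved by the scaling of that library.

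**Figure D2:**
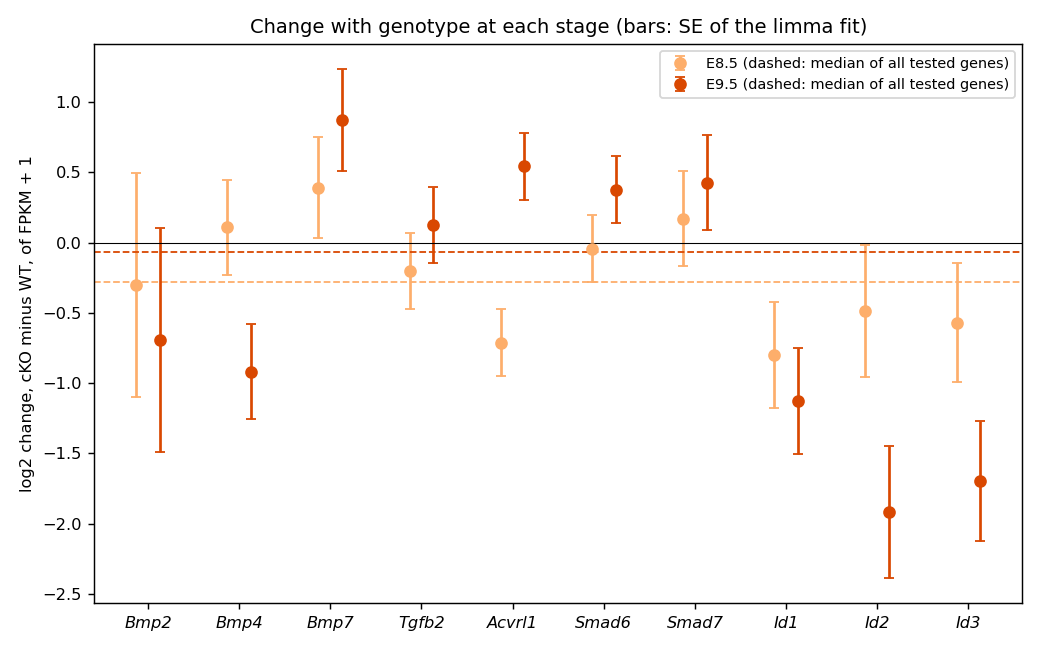
Log2 change (cKO minus WT of FPKM + 1) of the 10 genes at E8.5 (light) and E9.5 (dark), with bars for the SE of the limma fit over all 8 libraries and dashed lines for the median of all tested genes. At E9.5 the *Id* genes lie at -1.13 to -1.91 and *Bmp7*, *Acvrl1*, *Smad6* and *Smad7* above zero, and *Acvrl1* lies at -0.71 at E8.5 and 0.54 at E9.5.

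Because the deletion removes a protein needed for most miRNAs, the longest annotated 3′ UTR of each gene was searched for matches to the seeds (bases 2 to 8) of 7 miRNAs. These are miR-541-5p, which the study examined, and 6 miRNAs abundant in many tissues. The search left out miR-1, which the study also examined and found to be the most abundant in E9.5 hearts, and miR-133a. The mature sequences that matched *Smad6* are printed beside miR-541-5p with the seed in capitals (RefSeq), since 2 seeds from a single primary transcript meet in this gene.
miR-17-5p: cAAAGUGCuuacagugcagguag
miR-20a-5p: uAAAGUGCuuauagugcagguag
miR-92a-3p: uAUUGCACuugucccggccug
miR-541-5p: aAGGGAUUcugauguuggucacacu
The first 2 share their seed. Their match and that of miR-92a-3p in the 378-base 3′ UTR of *Smad6* (GENCODE transcript, mm9), with the match in capitals, start at bases 233 and 199, and the single match to miR-541-5p was in *Bmp2*.
Smad6 with miR-17-5p and miR-20a-5p: acaagaaagacGCACTTTggcttgtaatt
Smad6 with miR-92a-3p: atttatatatgGTGCAATgtgtgtatatg
Bmp2 with miR-541-5p: cttaagcctatAATCCCTtccagggggct

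*Smad7* also held a match to the seed shared by miR-17-5p and miR-20a-5p, to that of miR-92a-3p and to that of miR-21a-5p, and *Bmp2* and *Bmp7* each held 1 to miR-30c-5p. *Bmp4*, *Tgfb2*, *Acvrl1*, *Id1*, *Id2* and *Id3* held no match to any of the 7. Over the 9050 tested genes with a 3′ UTR, 12.4% held the miR-17-5p match, 13.8% the miR-30c-5p match, 6.30% the miR-92a-3p match, 6.30% the miR-21a-5p match and 7.29% the miR-541-5p match. Of the genes with such matches, *Smad6* and *Bmp7* were higher in both E9.5 cKO libraries, as 21.0% of all tested genes were, and *Smad7* and *Bmp2* overlapped between genotypes. Of the genes without a match, *Acvrl1* was also higher in both, *Tgfb2* overlapped, and *Bmp4*, *Id1*, *Id2* and *Id3* were lower in both. Whether matches go with the changes was not tested. A match describes the letters only, and binding was not measured in these libraries.

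*Acvrl1* was the gene of the 10 whose genotypes separated without overlap in opposite directions at the 2 stages. It measured 4.67 and 3.74 FPKM in the controls at E8.5, against 2.60 and 1.79 in cKO hearts, while at E9.5 it measured 1.10 and 1.40 against 2.28 and 2.27 FPKM. The cKO libraries were thus below both WT libraries at E8.5 and above both at E9.5. Of all tested genes, 40.1% were lower without overlap at E8.5 and 21.0% were higher at E9.5, and the share that did both was not counted. By limma, the estimates for *Acvrl1* were -0.71 at E8.5 (log2, SE 0.24, unadjusted p 0.018, adjusted p 0.590) and 0.54 at E9.5 (SE 0.24, unadjusted p 0.053, adjusted p 0.323). The difference between the stages was 1.25 on the log2 scale (SE 0.34, 95% interval 0.47 to 2.04, limma unadjusted p 0.006), with an adjusted p of 0.519 over all tested genes, and did not pass the threshold.

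The direction of this difference was the same in every alternative setting, from 1.03 to 1.74, and when single libraries were left out, from 1.07 to 1.44. None of the 10 genes was called in the interaction by limma, and 0.0399% of all tested genes were called in either direction. *Acvrl1* was the 1 gene of the 10 that was higher by the unadjusted p and fold limits, which 5.69% of all genes were.

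*Acvrl1* is an endothelial gene, and 9 endothelial and endocardial markers summed at E9.5 to 66.7 and 78.0 FPKM in WT against 109 and 100.4 in cKO. At this stage 4 of the 9 markers (*Pecam1*, *Tie1*, *Esam* and *Nfatc1*) were higher in cKO hearts without overlap and 2 (*Tek* and *Npr3*) were lower, against 21.0% and 31.1% of all tested genes. At E8.5 the sums overlapped, with 104 and 120 FPKM for WT against 108 and 75.1 for cKO, while *Acvrl1* did not. At E8.5, however, 4 of the 9 markers (*Kdr*, *Tek*, *Emcn* and *Esam*) were lower in cKO hearts without overlap, as *Acvrl1* was, and none was higher, against 40.1% and 2.54% of all tested genes. The part of endothelial cell number in the *Acvrl1* values was not tested.

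**Figure D3:**
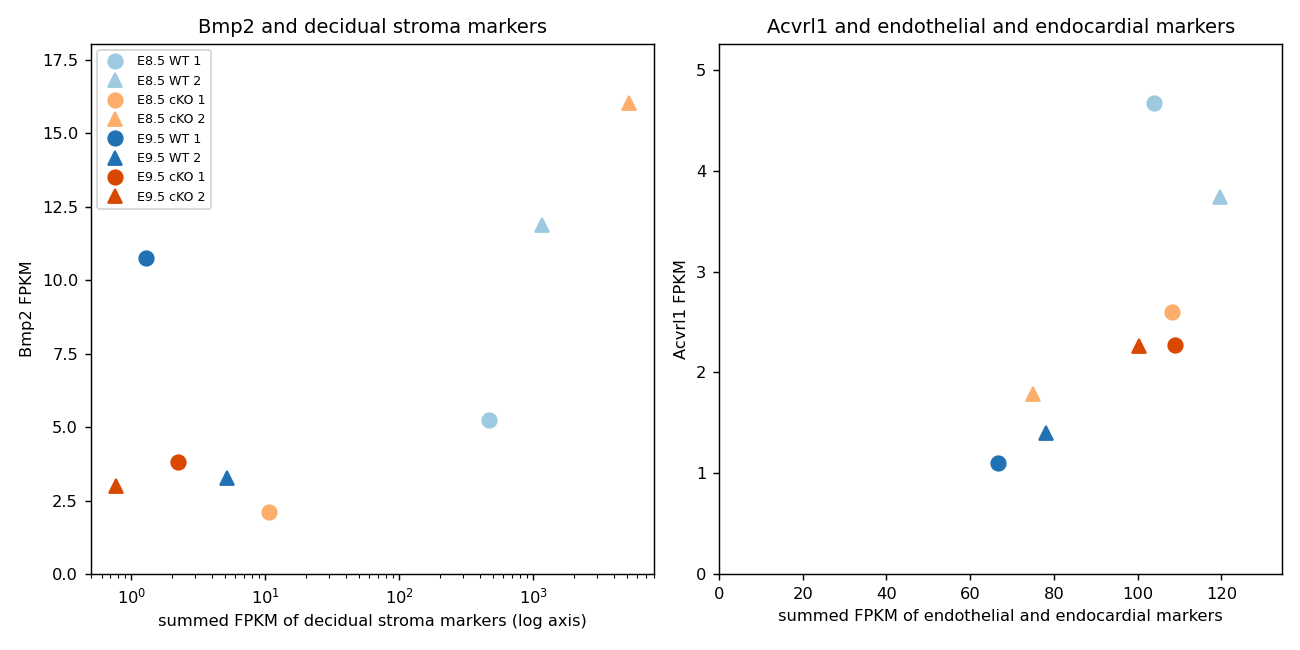
Left, *Bmp2* FPKM against the summed FPKM of 5 decidual markers (log axis); right, *Acvrl1* FPKM against the summed FPKM of 9 endothelial and endocardial markers; each point is a library. At E8.5 *Bmp2* follows the decidual sum from 2.11 FPKM at a sum of 10.6 to 16.0 FPKM at 5156, and the E9.5 cKO libraries are above the E9.5 WT libraries on both axes of the right panel.

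At E8.5 none of the 10 genes passed the test of limma, and 0.00998% of all tested genes did in either direction. By the unadjusted p and fold limits, *Acvrl1* alone was lower, against 6.90% of all genes, and none was higher, against 0.240%. *Acvrl1* and *Id2* were lower without overlap, against 40.1% of all tested genes, and none was higher without overlap, against 2.54%. The median log2 change was -0.25 for the 10 genes and -0.28 for all genes, so that genes near this value did not stand apart from the table as a whole.

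*Id2* reached 528 and 511 FPKM in WT at E8.5, compared with 407 and 337 in cKO. *Id1* was at 335 and 227 FPKM in the 2 WT libraries and at 228 and 110 in the 2 cKO libraries, and *Id3* measured 483 and 333 FPKM in the controls, against 343 and 212 in cKO hearts. Both *Id1* and *Id3* overlapped between genotypes, by 1 cKO library just above the lower WT library. The log2 changes of *Id1*, *Id2* and *Id3* were -0.80, -0.49 and -0.57 (SE 0.38 to 0.47). Without E8.5 cKO replicate 2, the lower cKO library for each, *Id1* and *Id3* came to -0.28 and -0.22, and without E8.5 WT replicate 1 to -0.52 and -0.30. E8.5 cKO replicate 2 was also the library with the highest decidual sum, 5156 FPKM, and had 50.5% of its FPKM on loci under 300 bp. The part of maternal tissue in the *Id* values was not tested. The summed second heart field markers were also lower in both cKO libraries, at 21.1 and 25.1 FPKM against 57.0 and 43.7 in WT, with 4 of the 5 lower without overlap (40.1% of all tested genes were). The part of these cells in the *Id* values was not tested. Relative to the median gene the changes of *Id1*, *Id2* and *Id3* were -0.52, -0.21 and -0.29.

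*Bmp2* reached 5.25 and 11.9 FPKM in WT at E8.5, compared with 2.11 and 16.0 in cKO. Its spread between the cKO libraries was 7.60-fold, the widest of the 10 genes in any group. The 4 libraries stood in the same order by *Bmp2* as by the summed decidual markers, and *Bmp2* is known to be strongly expressed in decidua. The part of maternal tissue in these values was not tested. At E9.5, where the decidual sum was at most 5.16 FPKM, the WT library with 10.8 FPKM of *Bmp2* had a decidual sum of 1.30.

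*Bmp7* was at 7.05 and 10.2 FPKM in the 2 WT libraries at E8.5 and at 8.33 and 15.5 in the 2 cKO libraries, and it was also highest in the cKO library with the most decidual transcripts. *Smad7* measured 1.86 and 1.93 FPKM in the controls, against 1.47 and 3.29 in cKO hearts, again with its highest value in that library. Both genes overlapped between the genotypes, with log2 changes of 0.39 and 0.17 that turned negative without E8.5 cKO replicate 2, at -0.023 and -0.23.

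*Bmp4* reached 8.66 and 5.86 FPKM in WT at E8.5, compared with 6.96 and 8.67 in cKO. *Tgfb2* was at 16.5 and 10.9 FPKM in the 2 WT libraries and at 12.3 and 10.8 in the 2 cKO libraries, and *Smad6* measured 3.82 and 3.71 FPKM in the controls, against 3.50 and 3.76 in cKO hearts. All 3 overlapped between genotypes. *Smad6* had the narrowest 95% interval around no change, from -0.60 to 0.51 on the log2 scale, while *Bmp4* had one from -0.67 to 0.89. For *Bmp4* the log2 difference between the effects at the stages was -1.03 (SE 0.48, limma adjusted p 0.715), and for *Id2* it was -1.43 (SE 0.66, adjusted p 0.715). The larger E9.5 differences of *Bmp4* and *Id2* were thus not shown to differ from those at E8.5.

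Between E8.5 and E9.5, WT hearts showed lower FPKM for most genes in the table, with a median log2 change of -0.84, against -0.64 in cKO hearts. In WT the decidual sum fell from 468 and 1163 to 1.30 and 5.16 FPKM, and the second heart field sum from 57.0 and 43.7 to 6.62 and 12.5. The endothelial and endocardial sum fell from 104 and 120 to 66.7 and 78.0. Sums of cardiomyocyte, proepicardial and yolk sac endoderm markers were higher at E9.5. The part of tissue make-up in any change between stages was not tested. In WT hearts *Acvrl1*, *Smad6* and *Id1* fell, with log2 changes of -1.21 (SE 0.24, limma adjusted p 0.013), -1.17 (SE 0.24, adjusted p 0.014) and -1.17 (SE 0.38, adjusted p 0.037). These 3 of the 10 genes stand against 46.7% of all tested genes called lower and 1.40% called higher. Relative to the median gene the changes were -0.37, -0.34 and -0.33, and after median-ratio scaling or quantile normalization 0 of the 10 were called. Without the filter on low values, *Acvrl1* and *Smad6* were called and *Id1* was not. Under median-ratio scaling the log2 changes of *Acvrl1*, *Smad6* and *Id1* were -0.51, -0.49 and -0.17, and under quantile normalization -0.33, -0.33 and -0.96, so that the size of the fall of *Id1* depended on the scaling. Leaving out either E8.5 WT library or E9.5 WT replicate 1 also left 0 of the 10 called, and leaving out E9.5 WT replicate 2 left *Acvrl1* alone.

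The other members stood above the median gene in WT hearts on the FPKM as deposited. The log2 changes were 0.39 for *Bmp4*, 0.24 for *Id3*, -0.30 for *Bmp7*, -0.32 for *Id2*, -0.34 for *Bmp2*, -0.41 for *Tgfb2* and -0.70 for *Smad7*, and none was called by limma. Under median-ratio scaling those of *Bmp7*, *Id2*, *Bmp2* and *Tgfb2* turned positive (0.57, 0.67, 0.52 and 0.50), and under quantile normalization those of *Bmp7*, *Bmp2*, *Tgfb2* and *Smad7* did. Relative to the median gene, *Bmp4* and *Id3* were 1.23 and 1.07 higher and *Id2* 0.51 higher. After quantile normalization *Bmp4* was 1.36 above the median gene, but *Id3* was 0.11 above it and *Id2* stood at -0.45 relative to it.

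In cKO hearts *Id1*, *Id2* and *Smad6* fell between the stages, with log2 changes of -1.497 (SE 0.38, limma adjusted p 0.027), -1.75 (SE 0.47, adjusted p 0.031) and -0.75 (SE 0.24, adjusted p 0.047). Among all tested genes 28.5% were called lower and 2.05% higher. In cKO hearts the decidual sum fell from 10.6 and 5156 to 2.22 and 0.77 FPKM, and the second heart field sum from 21.1 and 25.1 to 10.4 and 14.4. The cardiomyocyte sum rose from 54123 and 37145 to 73863 and 75078 FPKM, and the endothelial and endocardial sum went from 108 and 75.1 to 109 and 100.4. *Id1* and *Id2* fell by 0.86 and 1.12 more than the median gene on the log2 scale, and *Smad6* by 0.12 more. Under median-ratio scaling the log2 changes of *Id1*, *Id2* and *Smad6* were -0.75, -0.997 and -0.22. With the replicate number in the model, or with 0.1 added to FPKM in place of 1, *Id1* and *Id2* were called and *Smad6* was not. With median-ratio scaling, quantile normalization, no filter on low values or a fit of only the 4 cKO libraries, 0 of the 10 were called, and leaving out either E9.5 cKO library also left 0. Leaving out any E8.5 library left *Id1* alone. *Acvrl1* had a log2 change of 0.05 in cKO hearts, against the fall of 1.21 in WT hearts, and this contrast is the interaction given above.

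The E9.5 difference was then set beside a wider list of 76 pathway genes in 6 roles, of which 49 were tested. In E9.5 cKO hearts limma called 0 of the 49. With an unadjusted p under 0.05 at 1.5-fold or more, 4 were higher and 6 lower, against 5.08% and 9.99% of all tested genes. These counts include the 10 genes described above, and of the other 39 genes 3 were higher and 2 lower. The median log2 change of the list was -0.01. By role, the medians were -0.64 for 11 targets, -0.22 for 9 ligands, -0.04 for 6 extracellular inhibitors and latency proteins, 0.16 for 8 intracellular inhibitors, 0.21 for 5 signal SMADs and 0.25 for 10 receptors. Of the 11 target genes 7 were lower and 2 were higher without overlap, against 31.1% and 21.0% of all tested genes. The 7 include *Id1*, *Id2* and *Id3*, which also enter the median of the targets, so neither value is independent of the results above.

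The target genes did not form a single pattern. Besides the *Id* genes, *Snai1*, a gene of the epithelial to mesenchymal transition, had 6.44 FPKM in each E9.5 WT library and 1.53 and 1.54 FPKM in the cKO libraries. *Msx2*, a homeobox gene induced by BMPs, reached 6.65 and 16.8 FPKM in WT, compared with 4.22 and 5.97 in cKO. In contrast *Ctgf*, a matricellular protein gene induced by TGF-beta, was at 11.2 and 21.5 FPKM in the 2 WT libraries and at 350.0 and 151 in the 2 cKO libraries, and *Tagln*, a smooth muscle and early heart actin-binding protein gene, measured 352 and 586 FPKM in the controls, against 1536 and 1218 in cKO hearts. Neither genotype overlapped with the other in these 4 genes, of which *Snai1* and *Msx2* were picked after their values were seen.

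By limma, *Ctgf* differed by 3.80 on the log2 scale (SE 0.57, adjusted p 0.065) and *Tagln* by 1.59 (SE 0.41, adjusted p 0.139). The log2 changes of *Snai1* and *Msx2* were -1.55 (SE 0.66, adjusted p 0.306) and -0.95 (SE 0.47, adjusted p 0.374), and none of the 4 genes passed the threshold. *Ctgf* was called under median-ratio scaling (adjusted p 0.025), and *Ctgf* and *Snai1* were called when either E8.5 cKO library was left out.

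**Figure D4:**
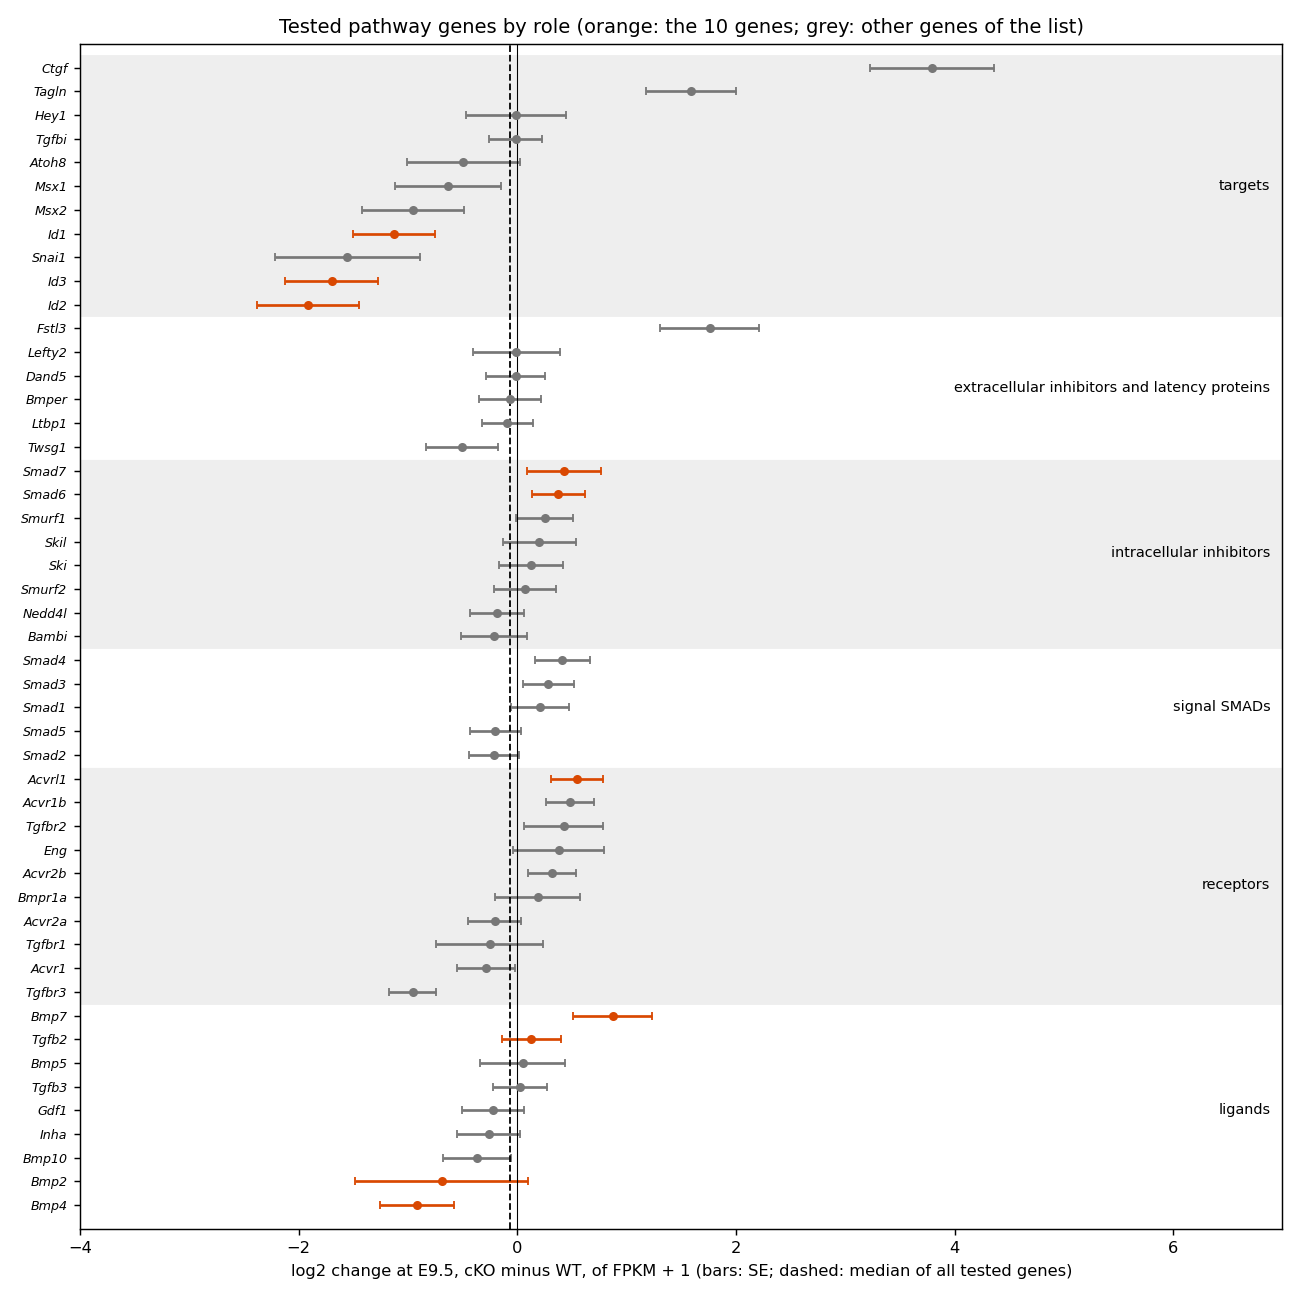
Log2 change at E9.5 (cKO minus WT of FPKM + 1, bars for the SE) of the 49 tested pathway genes grouped by role, with the 10 genes in orange and a dashed line for the median of all tested genes (-0.07). *Id1*, *Id2*, *Id3* and *Snai1* form the low end of the targets and *Ctgf* the high end, at 3.80.

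Among receptors, *Eng*, which encodes the co-receptor endoglin of endothelial cells, reached 45.4 and 38.2 FPKM in WT at E9.5, compared with 59.5 and 49.6 in cKO, and was higher without overlap as *Acvrl1* was (log2 change 0.38, limma adjusted p 0.740). *Tgfbr3*, which encodes the co-receptor betaglycan and was picked after its values were seen, was at 4.60 and 4.61 FPKM in the 2 WT libraries and at 1.78 and 1.99 in the 2 cKO libraries (log2 change -0.96, limma adjusted p 0.119). Among signal SMADs, *Smad2* measured 2.12 and 2.86 FPKM in the controls, against 1.83 and 2.18 in cKO hearts, which overlapped. *Bambi*, which encodes a decoy receptor, reached 22.8 and 15.5 FPKM in WT, compared with 16.5 and 15.8 in cKO and overlapped too. Among extracellular inhibitors, *Fstl3*, also picked after its values were seen, was at 0.96 and 1.14 FPKM in the 2 WT libraries. In the 2 cKO libraries it was at 7.54 and 4.62 FPKM (log2 change 1.76, SE 0.45, limma adjusted p 0.138).

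Between stages in WT hearts, 18 of the 49 genes were called lower and 2 higher, against 46.7% and 1.40% of all tested genes, so that falls were no more frequent in the list than in the table. Besides the 3 genes above, the lower genes were the ligand genes *Bmp5* and *Gdf1*, the receptor genes *Acvr1b*, *Acvr2a*, *Acvr2b* and *Bmpr1a*, the SMAD genes *Smad1*, *Smad2*, *Smad4* and *Smad5*, the inhibitor genes *Skil*, *Smurf1* and *Smurf2*, and the extracellular inhibitor genes *Bmper* and *Lefty2*. *Inha* and *Tgfbi* were higher. *Lefty2*, an inhibitor of nodal signals, had 30.7 and 21.4 FPKM in E8.5 WT libraries and was listed at 0 and 0.11 FPKM in E9.5 WT libraries (log2 change -4.66, limma adjusted p 0.003). Under median-ratio scaling 5 genes were called (*Bmper*, *Inha*, *Lefty2*, *Tgfbi* and *Tgfbr3*), and without E8.5 WT replicate 1 or E9.5 WT replicate 1 *Lefty2* was the only one.

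In cKO hearts 11 of the 49 genes were called lower between stages and 4 higher, against 28.5% and 2.05% of all tested genes. *Ctgf* (log2 change 4.48, SE 0.57), *Tagln* (2.65, SE 0.41), *Eng* (1.62, SE 0.42) and *Tgfbi* (1.43, SE 0.24) rose, with limma adjusted p of 0.015, 0.016, 0.029 and 0.016. The lower genes beside *Id1*, *Id2* and *Smad6* were *Acvr2b*, *Bmp5*, *Bmper*, *Gdf1*, *Lefty2*, *Smad1*, *Smad2* and *Smad5*. Under median-ratio scaling 5 genes were called (*Ctgf*, *Eng*, *Lefty2*, *Tagln* and *Tgfbi*), and without either E9.5 cKO library 0 were called. The WT and cKO stage comparisons were not tested against each other for these genes beyond the interaction, in which limma called 0 of the 49, and 1 (*Snai1*, -2.74, adjusted p 0.046) without E8.5 cKO replicate 1.

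The genes most like *Id1* and *Bmp4* over the 8 libraries were found by the root mean square difference of gene-centred log2 values among 5903 genes. For *Id1* these were *Ncs1* (0.19), which encodes a neuronal calcium sensor, *3110045C21Rik* (0.21) and *Rangrf* (0.22). *Ncs1* was at 11.7 and 13.5 FPKM in the 2 WT libraries at E9.5 and at 6.80 and 6.60 in the 2 cKO libraries. For *Bmp4* they were *Cfl2* (0.23), which encodes muscle cofilin, *Nedd4* (0.25), which encodes a ubiquitin ligase, and *Pdha1* (0.27), which encodes a subunit of pyruvate dehydrogenase.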

How the data were processed

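RNA of E8.5 and E9.5 hearts was amplified by a Smart-seq protocol, sequenced and mapped with BWA to mm9, per the labels and the study's methods. The FPKM values were calculated and deposited by the authors for each library, and the program that made them is not given in the sources used here. The positions fit GRCm38, since 91.7% of 9513 starts compared with RefSeq lay within 1000 bp of it, so no other build is used for the positions of the table. Of 24930 entries with 8 value columns (0 left unused), 285 symbols occurred repeatedly and were reduced to their most abundant entry, and 27 symbols turned into dates were kept by locus, which left 24385 features. FPKM carries no absolute depth, so no counting intervals are given.

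Values were analysed as log2(FPKM + 1) for 10018 genes whose mean reached 1 FPKM. Changes of weakly expressed genes come out too small on this scale. Groups were compared by limma (version 3.58.1, R 4.3.3). The 4 groups shared 1 model, with two-sided moderated tests, a mean-variance trend and Benjamini-Hochberg adjustment over all tested genes. A gene was called when its adjusted p was under 0.05 and its change 1.5-fold or more. With 2 libraries a group, the smallest two-sided p of an exact permutation test is 0.333. The procedure was tested on simulated data. The study describes 2 biological replicates per group, and whether embryos were pooled is not given in the sources used here, so p-values measure the spread between these libraries.

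The 10 genes, the 76 pathway genes and the marker lists were chosen with earlier results of these data known, from general knowledge. Named genes were the 10, pathway genes called in a comparison, the most abundant tested gene of each role, *Dgcr8*, and the 3 genes most like *Id1* and *Bmp4*. *Msx2*, *Snai1*, *Tgfbr3* and *Fstl3* were named outside this rule, after their values were seen. Replicate numbers did not pair the libraries (correlations of deviations from -0.12 to 0.19).

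The other marker lists gave these summed FPKM, as the lowest and highest of the 8 libraries: second heart field 6.62 and 57.0, proepicardial 3.58 and 34.1, primitive erythroid 7776 and 39582, yolk sac endoderm 743 and 6724, neural 0 and 1.65, and myeloid and uterine natural killer cells 6.90 and 372.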

Additional observations from a re-analysis of the deposited data

Results flagged for a closer look

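The difference between the cKO effects on *Acvrl1* at E9.5 and E8.5 was picked out because every cKO library lay below the WT libraries at E8.5 and above them at E9.5. The effect was -0.71 at E8.5 and 0.54 at E9.5. The difference between them was 1.25 on the log2 scale (limma interaction, unadjusted p 0.006, adjusted p 0.519 over all tested genes), which did not pass the threshold. Of all tested genes, 40.1% were lower without overlap at E8.5 and 21.0% were higher at E9.5, and the share that did both was not counted.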

How the results depend on the processing

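At E9.5 the log2 change between genotypes kept its direction in all 15 alternatives for each of the 10 genes except *Bmp2*, which turned to 0.04 without E9.5 WT replicate 1, and 0 of the 10 were called in any of them or in the interaction. With 2 libraries per group and unknown absolute depth, genes near 1 FPKM are the least certain.

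Median-ratio scaling turned the E8.5 genotype changes of *Bmp2*, *Tgfb2* and *Smad6* to 0.037, 0.12 and 0.22, and quantile normalization to 0.096, 0.11 and 0.19. Between stages in WT, median-ratio scaling turned *Tgfb2*, *Bmp2*, *Bmp7* and *Id2* to 0.50, 0.52, 0.57 and 0.67, and quantile normalization turned *Smad7*, *Tgfb2*, *Bmp2* and *Bmp7* to 0.055, 0.57, 0.61 and 0.67. In cKO, median-ratio scaling turned *Bmp4*, *Smad7* and *Tgfb2* to 0.0145, 0.020 and 0.62, quantile normalization to 0.096, 0.16 and 0.69, and rescaling to loci of 300 bp or more turned *Acvrl1* to -0.034. Both scalings move the median gene close to zero.

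Of the 10 genes, 0 were called between stages in WT under both scalings, and 0 in cKO under both, without the filter on low values and with only the 4 libraries compared. Of the wider list, median-ratio scaling called 1 gene between genotypes at E9.5, 5 between stages in WT and 5 in cKO. Quantile normalization called 4 and 7 between stages, and in cKO no filter called 6 and only the 4 libraries called 7. The cause was not tested.

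With single libraries left out, 0 to 3 of the 10 genes were called between stages in WT and 0 to 2 in cKO. Of the wider list 1 to 25 were called in WT, with 1 without replicate 1 of either WT group, 2 without E8.5 WT replicate 2 and 12 without E9.5 WT replicate 2. In cKO 0 to 15 were called, with 0 without either E9.5 cKO library and 9 without either E8.5 WT library. Between genotypes 0 to 2 were called at E9.5 and 0 to 1 at E8.5, the last being *Lefty2* without E8.5 cKO replicate 2, and 0 to 1 in the interaction, the last being *Snai1* without E8.5 cKO replicate 1. A group left with 1 library is assumed to vary like the others.

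Some log2 changes turned when single libraries were left out. Between genotypes at E8.5 these were *Bmp2* (-1.53 to 0.93), *Bmp4* (-0.14 to 0.36), *Bmp7* (-0.023 to 0.80), *Smad7* (-0.23 to 0.57) and *Tgfb2* (-0.48 to 0.070), and at E9.5 *Bmp2* (-1.42 to 0.04). Between stages they were *Bmp2* (-1.07 to 0.39), *Bmp4* (-0.0148 to 0.80) and *Id3* (-0.27 to 0.74) in WT, and *Acvrl1* (-0.14 to 0.23), *Bmp2* (-1.96 to 0.496), *Bmp7* (-0.23 to 0.59) and *Tgfb2* (-0.20 to 0.047) in cKO. In the interaction they were *Bmp2* (-1.62 to 0.84), *Id1* (-0.85 to 0.19) and *Smad7* (-0.14 to 0.65).

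With a replicate block, 3 of the 10 genes were called between stages in WT and 2 in cKO, and 19 and 14 of the wider list, against 3, 3, 20 and 15 without it. A crossed replicate block, chosen after seeing the data, called 3 of the 10 in WT, and 125 genes higher and 4268 lower over the table.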
